A study of Mus musculus with 12 samples.

Results

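The interaction of DNBS and the NK2 receptor antagonist GR159897 concerns RNA pulled down through a tag for enteric glia. It asks whether the change that DNBS brings to this RNA differs when the receptor is blocked. For each gene it was taken as the difference between DNBS_GR159897 and Saline_GR159897 (the antagonist arm) less the difference between DNBS_Vehicle and Saline_Vehicle (the vehicle arm). Levels are FPKM, fragments per kilobase of transcript normalised to mapped fragments, and differences are on the log2(FPKM + 1) scale. A value above 0 means a higher DNBS difference in the antagonist arm, and a value below 0 a lower one. All 12 of 12 libraries entered, 3 per group, and the contrast was repeated on 11 libraries, without DNBS_GR159897 replicate 1.

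All mice were C57BL/6 and carried Sox10::CreERT2+/- with Rpl22tm1.1Psam/J, so that tamoxifen switched on a tagged ribosomal protein in cells expressing Sox10. Every group ate tamoxifen chow (400 mg/kg) for 2 weeks and normal chow for 1 week. Saline_Vehicle mice had a saline enema and 0.1% DMSO by injection, and Saline_GR159897 mice a saline enema and GR159897 at 0.5 mg/kg in 0.1% DMSO. DNBS_Vehicle and DNBS_GR159897 mice had an enema with 5 mg of DNBS in 50% ethanol, with the matching injection. Injections were daily over 3 days from 24 hours before the enema, and myenteric plexus of the distal colon was taken 48 hours after it. No ethanol is named for the saline enema, so DNBS and ethanol cannot be told apart, and the labels give no age. By the labels, 2 libraries of DNBS_GR159897 came from females and 1 from a male, against 1 and 2 per group elsewhere. The tagged ribosomes were pulled down from the tissue and the RNA bound to them was amplified and sequenced, so the values describe ribosome-bound RNA of cells in which the Sox10 driver had acted, along with any RNA that came down unspecifically. The labels do not say that the mice came from separate litters or cages, and p-values measure the spread between these samples.

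Tachykinins are short peptides released by enteric neurons. Neurokinin A, made from the Tac1 precursor, is the preferred ligand of the NK2 receptor (the product of Tacr2), which couples to Gq and raises intracellular calcium. Enteric glia surround the neurons of the plexus, are defined by Sox10, S100b and Gfap, and take up a reactive state with cytokine and matrix genes after injury. DNBS is a hapten that causes colitis in mice, and GR159897 is a non-peptide antagonist of the NK2 receptor.

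One library of the DNBS_GR159897 group stood apart from the other 11, and every interaction value includes that group. In DNBS_GR159897 replicate 1 the summed level of 14 enteric glia markers was 25.9 FPKM, against 835 to 3006 FPKM in the other 11 libraries. The 10 smooth muscle markers summed to 313 FPKM there, against 1765 to 6881 FPKM. The 12 epithelial markers, among them Epcam and Muc2, summed to 1570 FPKM there, against 0.43 to 78.5 FPKM elsewhere. That library had 22.6% of its summed FPKM on loci with an annotated transcript. The share was 56.4% and 64.5% in replicates 2 and 3 of its group, 53.8% to 84.0% in DNBS_Vehicle, 83.5% to 92.6% in Saline_Vehicle and 75.4% to 95.1% in Saline_GR159897. Interaction values of genes are therefore given over 12 libraries and over 11, without that library. In tissue pull-downs of this kind, fewer cells of a type and less RNA per cell cannot be told apart. Smooth muscle markers summed to 2412 to 6881 FPKM across DNBS_Vehicle, against 1359 to 1847 FPKM for the glial markers. The glial sum was the higher only in Saline_GR159897 replicate 1, at 3006 against 1765 FPKM. The gene values are thus not those of glia alone.

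**Figure D1:**
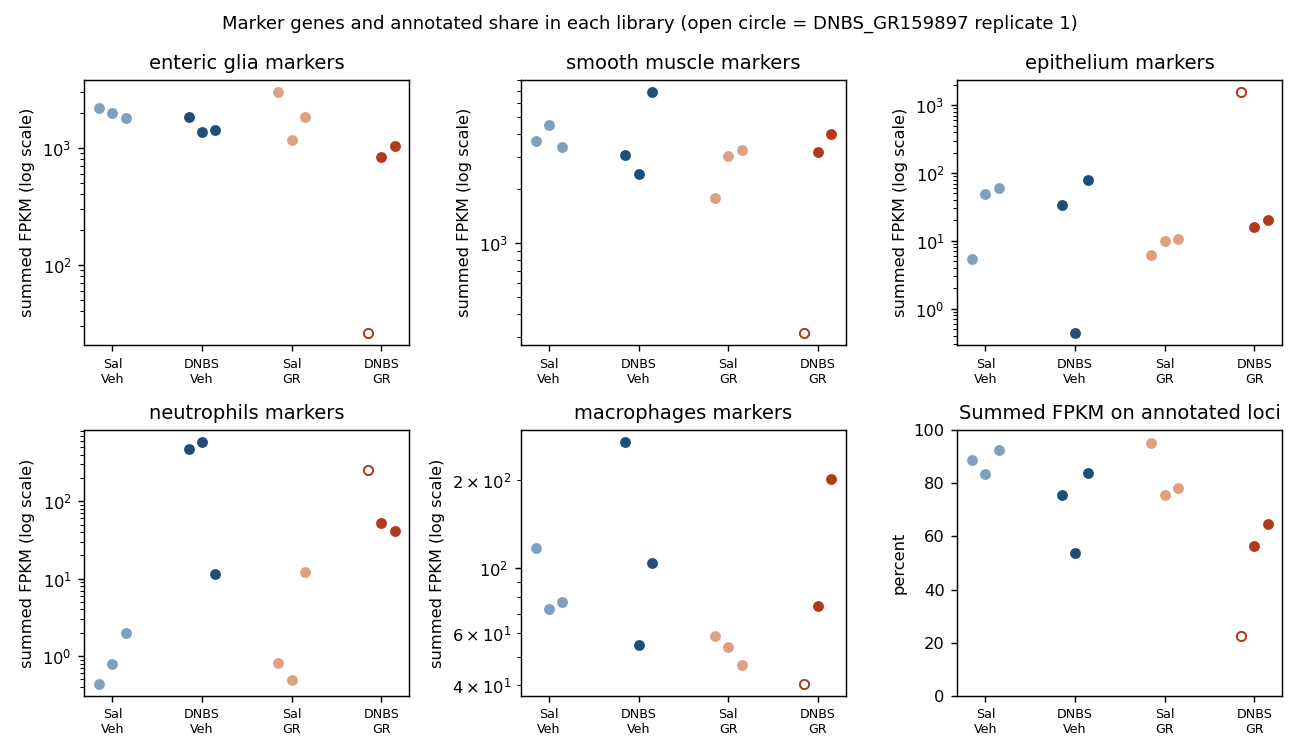
Each point is 1 library (3 per group; Sal, saline; Veh, vehicle; GR, GR159897). The first 5 panels show the summed FPKM of marker genes on a log scale, and the last the percent of summed FPKM on loci with an annotated transcript; the open circle, DNBS_GR159897 replicate 1, is lowest for glia (25.9 FPKM) and highest for epithelium (1570 FPKM). Gfap is blank in Saline_Vehicle and adds nothing to the glial sum there.

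No gene passed the adjusted threshold of 0.05 in the interaction over 12 libraries: limma called 0 of 12777 genes tested (0%). An unadjusted p under 0.05 was found for 458 genes (3.58%), of which 144 (1.13%) had an interaction above 0 and 314 (2.46%) below 0. Without DNBS_GR159897 replicate 1, 1 gene of 12777 passed (0.00783%), Gas1, which met the filter on low values only through the group where it was high, and 409 genes (3.2%) had an unadjusted p under 0.05, 165 (1.29%) above 0 and 244 (1.91%) below. The balance of directions moved with that library. The interaction was below 0 for 7619 genes (59.6%) over 12 libraries and for 6690 (52.4%) over 11, and its median over all genes was −0.18 and −0.03.

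The width of the estimates limits what could be seen. The median SE of the interaction was 0.69 over 12 libraries and 0.63 over 11, and the median half-width of the 95% confidence interval was 1.49 and 1.37. The interval lay wholly within 1 of 0 for 50 genes (0.391%) over 12 libraries and 41 (0.321%) over 11, and within 2 of 0 for 6104 (47.8%) and 7750 (60.7%). For most genes a difference between the arms of 2-fold was thus not detectable at this number of libraries, and a p that missed the threshold does not show equal change. The plot of both arms shows a broad cloud of genes around the line of equal change. Across the 12777 genes the differences in the arms, which share no library, had a Pearson r of 0.56 over 12 libraries and 0.59 over 11, as a description over genes that are not independent.

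**Figure D2:**
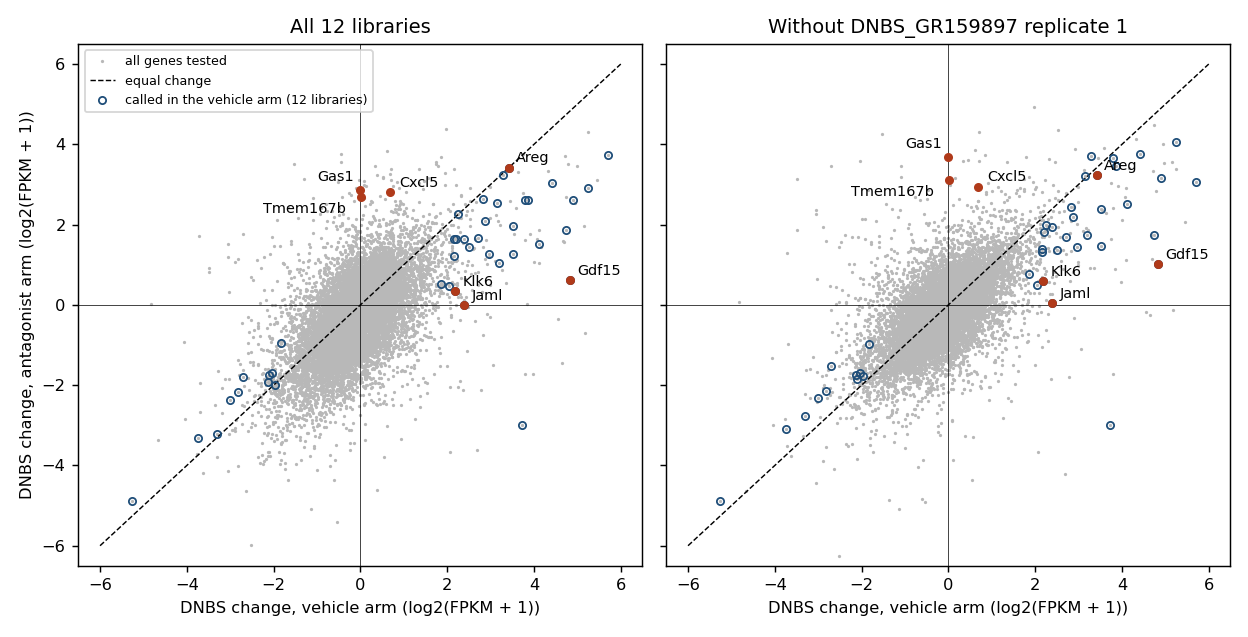
Each point is a gene, with the DNBS difference in the vehicle arm on the x axis and in the antagonist arm on the y axis, both on the log2(FPKM + 1) scale, over 12 libraries (left) and 11 (right). Open circles are the 41 genes called in the vehicle arm over 12 libraries, filled red points are named genes, and the dashed line marks equal change; Gas1, Tmem167b and Cxcl5 lie above the line, Gdf15, Jaml and Klk6 below it, and Areg on it in the left panel.

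Gas1, a membrane-anchored growth arrest protein that binds hedgehog ligands, was listed at 0 in all 9 libraries of the other groups. Its level was 1.35, 10.9 and 12.7 FPKM in replicates 1, 2 and 3 of DNBS_GR159897, so all 3 libraries of that group lay above every other. The interaction was 3.67 ± 0.39 (SE; 95% interval 2.83 to 4.52; adjusted p = 0.00913) without DNBS_GR159897 replicate 1, and 2.86 ± 0.74 (1.26 to 4.46; adjusted p = 0.957) with it. Gas1 met the filter of 1 FPKM in 3 libraries only through the 3 DNBS_GR159897 libraries, replicate 1 included, so it had to differ, and its call is a description. With a minimum of 1 FPKM in 6 libraries it was not among the genes tested, and 0 genes passed over 11 libraries. Because 3 groups were listed at 0, the size depends on the pseudocount and no fold is given. When another library was left out of the 11 as well, the adjusted p ranged from 0.0155 to 0.0543, and it was 0.0543 without Saline_Vehicle replicate 3. The gene did not pass at a pseudocount of 0.1 (adjusted p = 0.61) or with a term for the replicate number (0.102). Neither did it pass with loci that lack an annotated transcript among those tested (0.141). The gene lies at chr13:60174405-60177365 on the minus strand (GRCm38), and its exons overlap those of Gm48488 on the opposite strand, which these values do not tell apart. A further assembled locus named Gas1, with no annotated transcript, had 0.17 to 1.94 FPKM in the 6 saline libraries and 0, 0.40 and 0.77 FPKM across DNBS_GR159897, and was listed at 0 in all of DNBS_Vehicle. The listed 0 of the annotated locus is thus not absence of all RNA under that name.

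Tmem167b and Limd1 had a common pattern, in which Saline_GR159897 was the low group. Tmem167b, a small transmembrane protein encoded at chr3:108556425-108562466 on the minus strand, was at 9.36, 9.87 and 12.5 FPKM across Saline_Vehicle and 11.6, 11.8 and 8.53 FPKM across DNBS_Vehicle. It was at 0.68, 0.13 and 0.54 FPKM across Saline_GR159897 and at 4.23, 12.3 and 10.4 FPKM across DNBS_GR159897. The 3 Saline_GR159897 libraries lay below all 9 others, while the vehicle groups overlapped. Its DNBS difference was 0.00 ± 0.40 in the vehicle arm (adjusted p = 0.999) and 2.70 in the antagonist arm (adjusted p = 0.0152), and the interaction was 2.69 ± 0.57 (adjusted p = 0.765). Without replicate 1 the interaction was 3.11 ± 0.47 (adjusted p = 0.0861). Limd1, whose product carries LIM domains, was at 11.3, 18.7 and 9.67 FPKM across Saline_Vehicle, 10.2, 10.6 and 2.96 across DNBS_Vehicle, 1.18, 0.38 and 1.15 across Saline_GR159897 and 5.01, 9.30 and 12.8 across DNBS_GR159897. Again Saline_GR159897 lay below every other library, and the interaction was 3.13 ± 0.70 over 12 libraries and 3.46 ± 0.68 over 11 (adjusted p = 0.908 and 0.428). For both genes the saline groups thus differed more from each other than the DNBS groups did.

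Tmem53, Fam183b, Phlda1 and Pcdhb9 also had an interaction above 0. Tmem53, a transmembrane protein, was at 21.0, 13.6 and 20.0 FPKM across Saline_Vehicle and at 1.69, 1.21 and 1.79 FPKM across DNBS_Vehicle. It was at 2.18, 1.19 and 0.53 FPKM across Saline_GR159897 and at 0.38, 3.20 and 15.7 FPKM across DNBS_GR159897, whose libraries were widely spread. The interaction was 3.95 ± 0.96 over 12 libraries (adjusted p = 0.957) and 4.82 ± 0.73 over 11 (adjusted p = 0.0861). Fam183b, a gene linked to cilia, was at 9.71, 7.12 and 7.18 FPKM across Saline_Vehicle and 0.68, 0 and 0.44 FPKM across DNBS_Vehicle, so these groups did not overlap. In Saline_GR159897 it was at 3.98, 6.73 and 5.35 FPKM and in DNBS_GR159897 at 0.26, 5.91 and 9.91 FPKM, where replicate 1 alone was low. Its interaction was 2.28 ± 0.89 over 12 libraries and 3.21 ± 0.52 over 11 (adjusted p = 0.957 and 0.132). Phlda1, an intracellular protein induced by growth signals, had 2.27, 2.85 and 5.92 FPKM across Saline_Vehicle and 0, 3.47 and 0 FPKM across DNBS_Vehicle, which overlapped. Under the antagonist it had 3.33, 1.25 and 1.41 FPKM after saline and 7.17, 8.59 and 26.4 FPKM after DNBS, the highest values of all 12 libraries. Its interaction was 3.60 ± 0.89 and 3.93 ± 0.92 (adjusted p = 0.957 and 0.89). Pcdhb9, a neuronal protocadherin, was listed at 0 in all of DNBS_Vehicle and in 3 of 6 libraries under the antagonist, so its interaction of 4.24 ± 1.23 over 12 libraries and 5.32 ± 0.96 over 11 depends on the pseudocount (adjusted p = 0.957 and 0.307).

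Cxcl5 (chr5:90759360-90761624, plus strand), a chemokine that attracts neutrophils, was high in the DNBS_GR159897 group alone. It was listed at 0 in all of Saline_Vehicle, at 0.75, 0.05 and 1.25 FPKM across DNBS_Vehicle and at 0, 0.05 and 1.11 FPKM across Saline_GR159897. In DNBS_GR159897 it was at 6.42, 7.83 and 10.5 FPKM, above every other library and without a low replicate 1. It rose with DNBS in the antagonist arm by 2.80 (adjusted p = 0.0152) and by 2.95 without replicate 1 (adjusted p = 0.0156). The difference in the vehicle arm was 0.68 ± 0.38 (adjusted p = 0.494). Because Saline_Vehicle was listed at 0, these sizes depend on the pseudocount. Cxcl5 met the filter on low values only through DNBS_GR159897, so it had to differ, and its values are a description. The difference between the arms itself was 2.12 ± 0.54 over 12 libraries and 2.27 ± 0.57 over 11, which did not pass (adjusted p = 0.957 and 1).

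**Figure D3:**
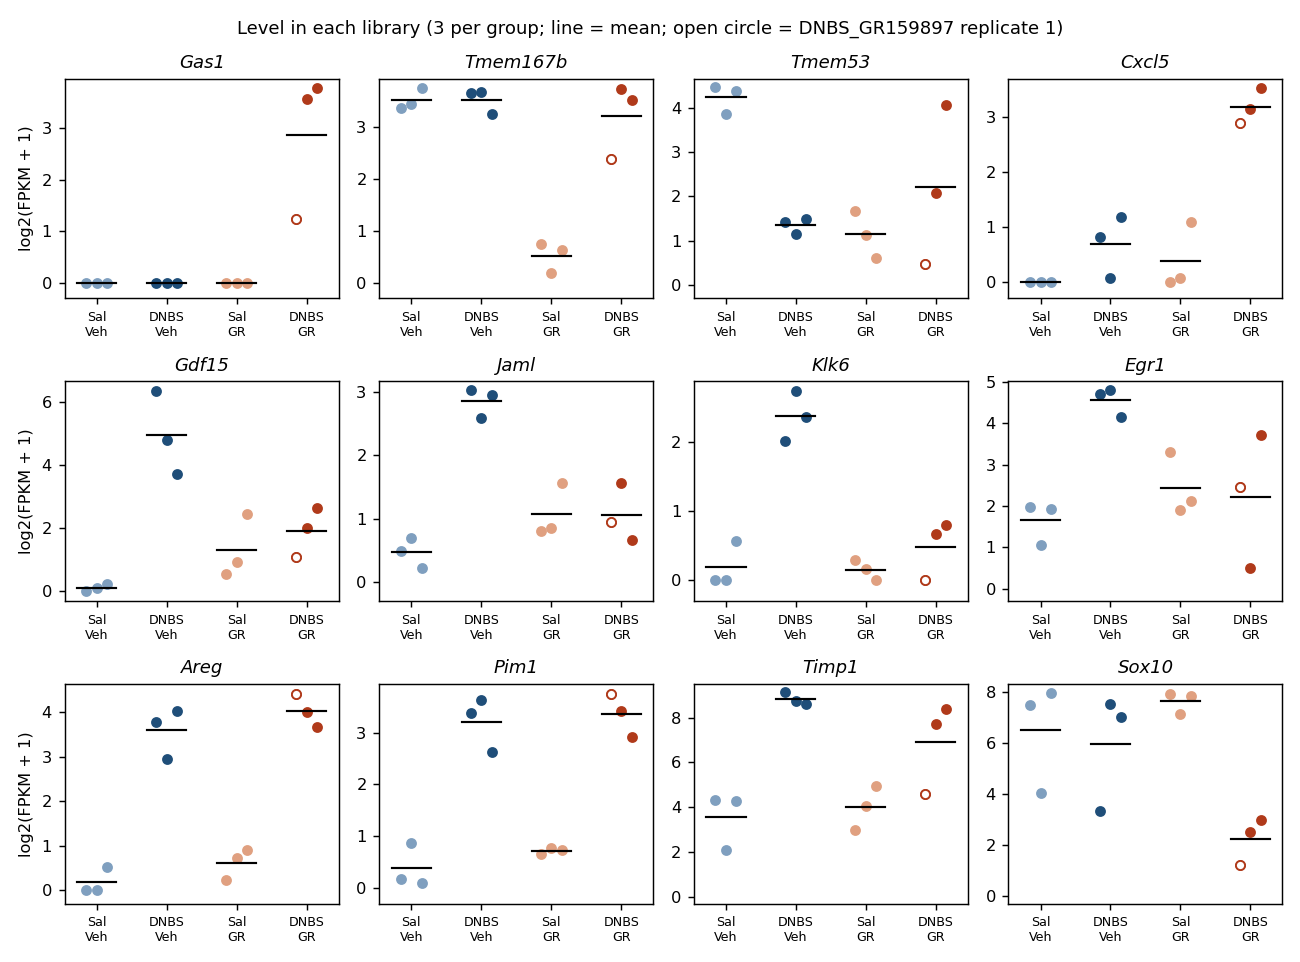
Level of 12 genes on the log2(FPKM + 1) scale in each library, 3 per group in replicate order, with the group mean as a line and DNBS_GR159897 replicate 1 as an open circle (Sal, saline; Veh, vehicle; GR, GR159897). Gas1 and Cxcl5 are high in DNBS_GR159897, Gdf15, Jaml, Klk6 and Egr1 in DNBS_Vehicle, and Areg, Pim1 and Timp1 in both DNBS groups.

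Among genes with an interaction below 0, several were high in DNBS_Vehicle and low elsewhere. Gdf15 (chr8:70629393-70632456, minus strand), a stress-induced cytokine of the TGF-beta family, was at 79.9, 26.9 and 12.2 FPKM across DNBS_Vehicle, above all 9 other libraries, of which the highest was 5.26 FPKM, in DNBS_GR159897 replicate 3. It rose in the vehicle arm by 4.84 ± 0.66 (adjusted p = 0.0098), and its difference in the antagonist arm was 0.61 over 12 libraries and 1.02 over 11 (adjusted p = 0.598 and 0.496). The interaction was −4.23 with a 95% interval from −6.24 to −2.23 over 12 libraries and −3.82 with an interval from −5.89 to −1.75 over 11 (adjusted p = 0.875 and 1). The leukocyte adhesion gene Jaml (chr9:45079183-45108534, plus strand) was at 7.15, 5.05 and 6.71 FPKM across DNBS_Vehicle and between 0.16 and 1.94 FPKM in the other 9 libraries. It rose in the vehicle arm by 2.39 ± 0.34 (adjusted p = 0.0125), against a difference of −0.01 in the antagonist arm, and its interaction was −2.41 ± 0.49 and −2.35 ± 0.51 (adjusted p = 0.765 and 0.694). Klk6, a secreted serine protease, was at 3.08, 5.72 and 4.17 FPKM across DNBS_Vehicle and at most 0.74 FPKM elsewhere. Its rise in the vehicle arm was 2.19 ± 0.34 (adjusted p = 0.0197), and its interaction −1.85 ± 0.47 and −1.61 ± 0.46 (adjusted p = 0.957 and 1). Jaml and Klk6 met the filter on low values only through DNBS_Vehicle, so they had to differ, and their values are a description. For Gdf15, Jaml and Klk6 the interaction moved by less than its SE without replicate 1. Exons of Jaml, Tmem167b, Tmem53, Phlda1, Colgalt1, Pim1, Thbs1, Fat4, Angptl1, Timp3, S1pr3, Ddit3, Krt8 and Cdc25b overlap a gene on the opposite strand, and reads from such pairs may not be told apart.

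Egr1 and Cd68 had the same layout at other levels. Egr1, an immediate early transcription factor, was at 25.3, 26.9 and 16.8 FPKM across DNBS_Vehicle, against 2.93, 1.08 and 2.79 FPKM across Saline_Vehicle. In the antagonist arm the groups overlapped, with 8.95, 2.71 and 3.34 FPKM after saline and 4.46, 0.42 and 12.1 FPKM after DNBS. Its interaction was −3.13 ± 0.96 over 12 libraries and −3.24 ± 1.04 over 11 (unadjusted p = 0.00629 and 0.00942; adjusted p = 0.957 and 1). Cd68, a lysosomal protein of macrophages, was at 7.25, 7.14 and 6.66 FPKM across DNBS_Vehicle and at 2.10, 2.31 and 2.12 FPKM across DNBS_GR159897. It rose in the vehicle arm by 2.03 ± 0.36 (adjusted p = 0.0344), and its interaction was −1.57 ± 0.51 and −1.55 ± 0.54 (adjusted p = 0.957 and 1). Summed over 12 macrophage markers, of which none was at 0 throughout a group, the level was 54.8 to 270 FPKM across DNBS_Vehicle and 40.4 to 202 FPKM across DNBS_GR159897, and the groups overlapped. Cd68 was the lowest of 11 tested macrophage markers, of which 8 had an interaction above 0 over 12 libraries and 9 over 11, and the part of cell numbers in its value was not tested.

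Kat7 and Ccdc71 had opposite directions in the arms. Kat7, a histone acetyltransferase, was at 4.01, 0.87 and 1.47 FPKM across Saline_Vehicle and 10.2, 10.5 and 6.72 FPKM across DNBS_Vehicle, and at 9.87, 7.2 and 11.4 FPKM across Saline_GR159897 and 3.03, 3.52 and 5.58 FPKM across DNBS_GR159897. DNBS libraries lay above saline libraries in the vehicle arm and below them in the antagonist arm, without overlap, and the interaction was −2.87 ± 0.59 and −2.73 ± 0.61 (adjusted p = 0.765 and 0.694). Ccdc71, which shares exon sequence with Klhdc8b on the opposite strand, was at 9.08, 0.04 and 0.13 FPKM across Saline_Vehicle, where replicate 1 was near the 10.1 to 11.6 FPKM of DNBS_Vehicle. Its interaction was −4.50 ± 1.05 over 12 libraries, with an adjusted p of 0.957 that became 0.037 without Saline_Vehicle replicate 1. Over 11 libraries it was −4.21 ± 1.13 (adjusted p = 1, and 0.0452 without that control). Cxx1b, a retrotransposon-derived gene with near-identical copies, was at 20.1, 0 and 0 FPKM across Saline_Vehicle and 2.44, 0 and 0 FPKM across DNBS_GR159897. Its interaction of −6.31 ± 1.5 over 12 libraries and −6.90 ± 1.62 over 11 is uncertain, as reads may be split between the copies, and its adjusted p was likewise 0.957 with all libraries and 0.037 without Saline_Vehicle replicate 1 (1 and 0.024 over 11). The smallest adjusted p over 12 libraries, 0.0515, belonged to Gm15453, a processed pseudogene on chromosome 1 that lies outside the rule for named genes and was chosen after its values were seen. It was listed at 0 in all of Saline_Vehicle and all of DNBS_GR159897, and had 21.0, 2.36 and 30.2 FPKM across DNBS_Vehicle and 7.64, 6.07 and 7.14 FPKM across Saline_GR159897. Its interaction was −6.71 ± 0.88 over 12 libraries and −6.71 ± 0.97 over 11 (adjusted p = 0.0515 and 0.0861), and it passed in 7 of 25 settings of the test on annotated loci over 12 libraries and 6 of 24 over 11. The sizes depend on the pseudocount, and a processed pseudogene can share reads with its parent gene, so the value is uncertain. A further assembled locus named Gm15453, with no annotated transcript, had 1.66, 1.06 and 0.28 FPKM across Saline_Vehicle. It had 4.49 FPKM in DNBS_Vehicle replicate 2 and 4.52 FPKM in DNBS_GR159897 replicate 3, and was listed at 0 elsewhere. The listed 0 of the annotated locus is thus not absence of all RNA under the name Gm15453.

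Toe1, an exonuclease that trims small RNAs and whose exons overlap Tesk2 on the opposite strand, had 1.37, 0.03 and 0.01 FPKM across DNBS_GR159897, below the 1.7 to 10.5 FPKM of the other 9 libraries. It fell by 2.47 in the antagonist arm (adjusted p = 0.0374), with a difference of 0.08 in the vehicle arm, and its interaction was −2.54 ± 0.69 over 12 libraries and −2.95 ± 0.65 over 11 (adjusted p = 0.957 and 0.694). Trmt12, a tRNA-modifying enzyme, had 1.59, 0 and 0 FPKM across Saline_Vehicle and 1.79, 1.82 and 6.22 FPKM across DNBS_Vehicle. It had 7.61, 6.89 and 5.18 FPKM across Saline_GR159897 and 0.08, 2.99 and 0.76 FPKM across DNBS_GR159897. At this annotated locus the arms thus went in opposite directions, each without overlap. Its interaction was −3.42 ± 0.78 and −2.98 ± 0.76 (adjusted p = 0.947 and 1). A further locus named Trmt12, with no annotated transcript, was at 1.69, 0.46 and 1.09 FPKM across Saline_Vehicle and at 0 across DNBS_Vehicle. It had 1.43, 0 and 4.27 FPKM across DNBS_GR159897 and was not part of these values. Timm8a1, a chaperone of mitochondrial import, was uneven within both saline groups, at 0.51 to 16.6 FPKM and 1.31 to 17.6 FPKM, and its interaction was −4.92 ± 1.27 and −4.57 ± 1.42 (adjusted p = 0.957 and 1).

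**Figure D4:**
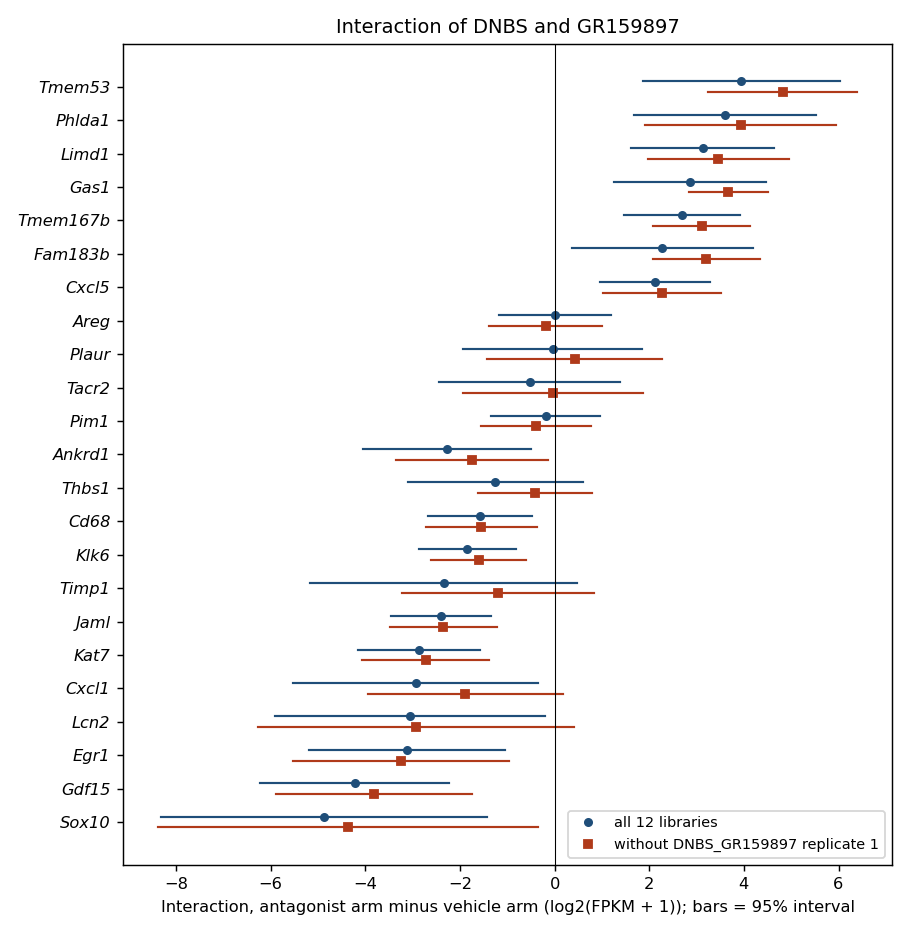
Interaction (antagonist arm minus vehicle arm, log2(FPKM + 1)) of 23 named genes with its 95% confidence interval, over 12 libraries (blue circles) and without DNBS_GR159897 replicate 1 (red squares). The value of Timp1 moves from −2.34 to −1.19 without that library, while those of Gdf15, Jaml and Kat7 move by less than 0.5.

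Another reading, without a test, asks for opposite directions, every DNBS library above every saline library in one arm and below in the other. Over 12 libraries 18 genes (0.141%) were higher with DNBS in the vehicle arm and lower in the antagonist arm, and 10 (0.0783%) had the reverse. Over 11 libraries the counts were 22 (0.172%) and 27 (0.211%). Full separation is easier to reach with fewer libraries in DNBS_GR159897, so here and below counts over 11 libraries do not compare directly with those over 12. Genes with the same direction in both arms were more frequent, 316 (2.47%) higher and 855 (6.69%) lower with DNBS over 12 libraries, and 628 (4.92%) and 940 (7.36%) over 11. Within single arms over 12 libraries, 9.53% of genes lay higher with DNBS in every library and 14.9% lower under vehicle, and 6.67% and 17.6% under the antagonist; over 11 libraries the latter were 12.9% and 20.7%. Kat7, Ccdc71, Trmt12, Pcbd1 and Colgalt1 were among the 18. Pcbd1, an enzyme that recycles the tetrahydrobiopterin cofactor, was at 5.63, 17.8 and 7.93 FPKM across Saline_Vehicle and 20.3, 19.4 and 36.9 FPKM across DNBS_Vehicle. In the antagonist arm it was at 28.8, 30.7 and 44.8 FPKM after saline and 5.56, 20.3 and 16.4 FPKM after DNBS. Its interaction was −2.68 ± 0.78 over 12 libraries and −2.17 ± 0.65 over 11 (adjusted p = 0.957 and 1). Colgalt1, which adds galactose to collagen, had 9.26 to 17.4 FPKM across DNBS_Vehicle against at most 9.04 FPKM across Saline_Vehicle, and 8.01 to 10.2 FPKM across DNBS_GR159897 against at least 14.0 FPKM across Saline_GR159897. Its interaction was −2.21 ± 0.68 and −2.12 ± 0.69 (adjusted p = 0.957 and 1).

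Gtpbp2, Zdhhc14 and Krt20 were among the 10 genes with the reverse order. Gtpbp2, a GTPase that helps release stalled ribosomes, was at 1.21 to 1.98 FPKM across DNBS_Vehicle and 2.10 to 4.51 FPKM across Saline_Vehicle. It was at 21.9, 3.64 and 4.21 FPKM across DNBS_GR159897 and 0.77 to 1.32 FPKM across Saline_GR159897. The highest value came from replicate 1, and the interaction was 2.70 ± 0.74 with it and 1.96 ± 0.47 without it (adjusted p = 0.957 and 0.908). A further locus named Gtpbp2, with no annotated transcript, was at 7.13 FPKM in DNBS_Vehicle replicate 2 and 0.93 to 2.26 FPKM across Saline_Vehicle. The order given for Gtpbp2 is that of its annotated locus. Zdhhc14, a palmitoyltransferase, had an interaction of 2.09 ± 0.55 and 1.83 ± 0.54 (adjusted p = 0.957 and 1), with all values of its annotated locus under 5 FPKM. Krt20 is a keratin of the gut epithelium and was at 26.8 FPKM in DNBS_GR159897 replicate 1, the library with the high epithelial sum, against 0.60 and 1.44 FPKM in replicates 2 and 3. It was listed at 0 in all of Saline_GR159897, so its interaction of 3.18 ± 1.09 with that library and 1.90 ± 0.47 without it depends on the pseudocount (adjusted p = 0.957 and 1).

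The genes that responded to DNBS under vehicle give the other view of the interaction. Their differences in the antagonist arm come from other libraries, while the calls in both arms use a spread pooled over all groups. In the vehicle arm 41 of 12777 genes passed (0.321%), 30 higher (0.235%) and 11 lower (0.0861%). Of the 30, 28 were also higher with DNBS in the antagonist arm, where 37.6% of all genes were, 23 of them with an unadjusted p under 0.05, against 5.77% of all genes, and 8 passed there. The median difference of the 30 was 3.17 in the vehicle arm and 1.65 in the antagonist arm. All of the 11 were lower in the antagonist arm (62.4% of all genes were) with an unadjusted p under 0.05, against 16.9% of all genes, 9 passed there, and the medians were −2.71 and −2.0. Genes chosen in 1 arm tend to have a median nearer to 0 in the other, and no test of the medians was made. Jaml and Gm15453 were the 2 of 30 that were not higher in the antagonist arm.

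Without DNBS_GR159897 replicate 1 the same view held with more genes. The vehicle arm then had 176 called genes (1.38%), 115 higher (0.9%) and 61 lower (0.477%), since the fit shares its spread with the antagonist arm. Of the 115, 113 were higher in the antagonist arm (43% of all genes) and 100 had an unadjusted p under 0.05 (6.05% of all genes), with medians of 2.20 and 1.69. Of the 61, 57 were lower (56.8% of all genes) and 52 had such a p (10.8% of all genes), with medians of −2.04 and −1.69. In the antagonist arm itself, 176 genes (1.38%) passed over 12 libraries, 49 higher (0.384%) and 127 lower (0.994%), and 48 (0.376%) over 11, 31 higher (0.243%) and 17 lower (0.133%). The vehicle-arm count depended on single controls too: 0 genes passed without Saline_Vehicle replicate 1 and 1 without Saline_Vehicle replicate 3.

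Areg, Pim1 and Plaur had nearly the same DNBS difference in both arms over 12 libraries. Areg, a ligand of the EGF receptor, was at 12.9, 6.79 and 15.3 FPKM across DNBS_Vehicle and 20.3, 15.2 and 11.7 FPKM across DNBS_GR159897, and at most 0.87 FPKM in the 6 saline libraries. It rose by 3.42 in the vehicle arm (adjusted p = 0.00917) and by 3.42 in the antagonist arm (adjusted p = 0.0053), with an interaction of 0.00 and a 95% interval from −1.18 to 1.19 over 12 libraries and a value of −0.19 ± 0.55 over 11. Pim1, a serine/threonine kinase, was at 9.36, 11.3 and 5.16 FPKM across DNBS_Vehicle and 12.4, 9.62 and 6.49 FPKM across DNBS_GR159897, against at most 0.83 FPKM after saline. It rose by 2.82 (adjusted p = 0.0098) and 2.63 (adjusted p = 0.0152), with an interaction of −0.19 between −1.35 and 0.97 over 12 libraries and of −0.39 ± 0.53 over 11. Plaur, the urokinase receptor, rose by 3.28 (adjusted p = 0.0464) and 3.23 (adjusted p = 0.0374), and its interaction of −0.04 had a wider interval, from −1.93 to 1.84, over 12 libraries, and was 0.43 ± 0.85 over 11. Over 12 libraries the intervals of Areg and Plaur leave room for a difference of more than 2-fold in either direction, and that of Pim1 for one below 0. Areg and Pim1 met the filter on low values only through the DNBS groups, so their rises are a description. Plaur did not meet it on the saline libraries alone, so its rise is a description too.

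Thbs1, Timp1 and Ankrd1 rose in the vehicle arm and had lower differences in the antagonist arm, and for Thbs1 and Timp1 the gap was at most 1.19 without replicate 1. Thbs1, a matrix glycoprotein, was at 3.95 FPKM in DNBS_GR159897 replicate 1 and at 30.0 and 24.6 FPKM in the other two of its group, and its interaction went from −1.25 ± 0.85 to −0.41 ± 0.56 without that library. Timp1, an inhibitor of matrix metalloproteinases, was at 23.4, 212 and 333 FPKM across DNBS_GR159897 and 560, 430 and 384 FPKM across DNBS_Vehicle, so the DNBS groups did not overlap. Timp1 and Thbs1 did not pass in the antagonist arm over 12 libraries (adjusted p = 0.104 and 0.0537) and did over 11 (0.031 and 0.00609). The interaction of Timp1 went from −2.34 ± 1.3 to −1.19 ± 0.93 (unadjusted p = 0.0954 and 0.224). Ankrd1, a nuclear ankyrin repeat protein, was at 36.9, 71.4 and 89.9 FPKM across DNBS_Vehicle and 9.38, 24.3 and 38.4 FPKM across DNBS_GR159897. It rose by 4.89 (adjusted p = 0.00917) and by 2.62 (adjusted p = 0.0476), and its interaction was −2.27 ± 0.82 and −1.74 ± 0.74 (unadjusted p = 0.0164 and 0.0363).

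Fat4 and Angptl1 fell in both arms over 12 libraries. Fat4, an atypical cadherin, was at 7.29, 8.51 and 10.9 FPKM across Saline_Vehicle and 0.82, 0.20 and 0.53 FPKM across DNBS_Vehicle, and at 3.70, 4.18 and 4.9 FPKM across Saline_GR159897 and 0.06, 1.32 and 0.42 FPKM across DNBS_GR159897. It fell by 2.71 (adjusted p = 0.0098) and by 1.79 (adjusted p = 0.0374), and the interaction was 0.92 ± 0.50 over 12 libraries and 1.18 ± 0.49 over 11 (adjusted p = 0.957 and 1). Angptl1, a secreted angiopoietin-like protein, fell by 2.83 (adjusted p = 0.0114) and by 2.17 (adjusted p = 0.0353), with an interaction of 0.66 ± 0.56 and 0.70 ± 0.60. The groups did not overlap in either arm for these genes, but over 11 libraries neither passed in the antagonist arm (adjusted p = 0.0837 and 0.0659). Neither would have met the filter on low values without the saline libraries, so their falls are a description.

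Gene lists were read by their counts and medians, without a test. Over all genes the median was −0.18 over 12 libraries and −0.03 over 11, and 59.6% and 52.4% of genes were below 0. Each list is to be read beside these values. No member of any list passed in the interaction. The 15 tested matrix remodelling genes, which include proteases, their inhibitors and matrix proteins, were all below 0 over 12 libraries with a median of −1.25. Over 11 libraries 11 of 15 were below 0 and the median was −0.46, so the shift was smaller without replicate 1. In the vehicle arm their median DNBS difference was 2.52, and in the antagonist arm 1.63 over 12 libraries and 2.32 over 11. Over 12 libraries Plaur was the highest member at −0.04, and Timp3, which binds to the matrix, the lowest at −3.06 ± 1.76 (unadjusted p = 0.105), against −2.74 ± 2.06 over 11. Of the 10 tested reactive glia genes 9 were below 0 in both sets of libraries, with medians of −2.06 and −1.09.

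The reactive glia list shares Timp1 with the matrix list and holds Lcn2, an iron-siderophore binding protein. Lcn2 was at 138, 24.3 and 15.2 FPKM across DNBS_Vehicle and 11.1, 5.97 and 34.6 FPKM across DNBS_GR159897. After saline it was at most 1.27 FPKM under vehicle and at 0.91, 1.99 and 17.7 FPKM under the antagonist, where replicate 3 was high. Its interaction was −3.06 ± 1.31 over 12 libraries and −2.93 ± 1.51 over 11 (unadjusted p = 0.0372 and 0.0796). The lowest member over 12 libraries was S1pr3, a receptor for sphingosine-1-phosphate, at −3.47 ± 1.42, against −2.21 ± 1.03 over 11, where Lcn2 was the lowest (unadjusted p = 0.0293 and 0.0539). It was at 0.58, 68.9 and 5.68 FPKM across DNBS_GR159897 and between 59.7 and 162 FPKM in the other 9 libraries, so 2 of 3 libraries of that group were low.

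Of 18 tested cytokines and chemokines, 13 were below 0 over 12 libraries and 15 over 11, with medians of −0.68 and −0.60, which moved little with replicate 1. Their median DNBS difference was 1.70 in the vehicle arm and 1.27 in the antagonist arm, with 16 and 14 of 18 above 0, where 43.1% and 37.6% of all genes were. Il6 was at 4.14, 3.41 and 4.56 FPKM across DNBS_Vehicle and 1.38, 0.91 and 5.71 FPKM across DNBS_GR159897, against at most 0.26 FPKM after saline, and the DNBS groups overlapped. It rose in the vehicle arm by 2.20 (adjusted p = 0.0458), and its interaction was −0.57 ± 0.58 and −0.37 ± 0.60. It met the filter on low values only through DNBS_Vehicle, so its rise is a description. A further locus named Il6, with no annotated transcript, was not part of these values. That locus had 2.81 FPKM in DNBS_Vehicle replicate 2 and 7.1 FPKM in DNBS_GR159897 replicate 2, and was listed at 0 elsewhere. Cxcl1, another chemokine for neutrophils, was the lowest member over 12 libraries, and Il1b over 11. Cxcl1 was at 29.0, 11.2 and 11.3 FPKM across DNBS_Vehicle and 0, 9.67 and 6.45 FPKM across DNBS_GR159897, with an interaction of −2.94 ± 1.2 over 12 libraries and −1.89 ± 0.94 over 11 (unadjusted p = 0.0293 and 0.0696). Ccl2, which attracts monocytes, was at 695, 160 and 129 FPKM across DNBS_Vehicle and 11.8, 65.3 and 202 FPKM across DNBS_GR159897, with an interaction of −2.24 ± 1.33 and −1.18 ± 1.07. Cxcl5 was the highest member and 1 of 3 with an interaction above 0 over 11 libraries.

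Immediate early genes had 14 of 18 members below 0 over 12 libraries and 13 over 11, with medians of −1.05 and −0.62. Egr1 was the lowest. Fos was at 89.0, 38.7 and 21.9 FPKM across DNBS_Vehicle and 11.5, 90.9 and 6.32 FPKM across DNBS_GR159897, where the spread of the second group covered the first, and its interaction was −1.13 ± 1.2 and −0.77 ± 1.26. Atf3, a stress-induced transcription factor, moved from −1.72 ± 1.28 to −0.51 ± 0.88 without replicate 1, where it was at 1.64 FPKM against 26.4 and 37.9 FPKM in replicates 2 and 3. In the list of NF-kB targets 6 of 9 members were below 0 (all genes: 59.6% over 12 libraries and 52.4% over 11), with medians of −0.48 and −0.09. Nfkbia, the inhibitor of NF-kB, had an interaction of −1.17 ± 1.02 and −0.61 ± 0.83. The oxidative stress list had medians of −0.82 and −0.20, and Hmox1, the haem-degrading enzyme, was at −0.82 ± 0.57 and −0.72 ± 0.59. In the list of the integrated stress response, which holds Gdf15, 10 of 13 members were below 0 over 12 libraries and 9 over 11, with medians of −0.82 and −0.24, and Ddit3, a transcription factor of this response, was the highest at 1.61 ± 1.17 and 1.89 ± 1.26.

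**Figure D5:**
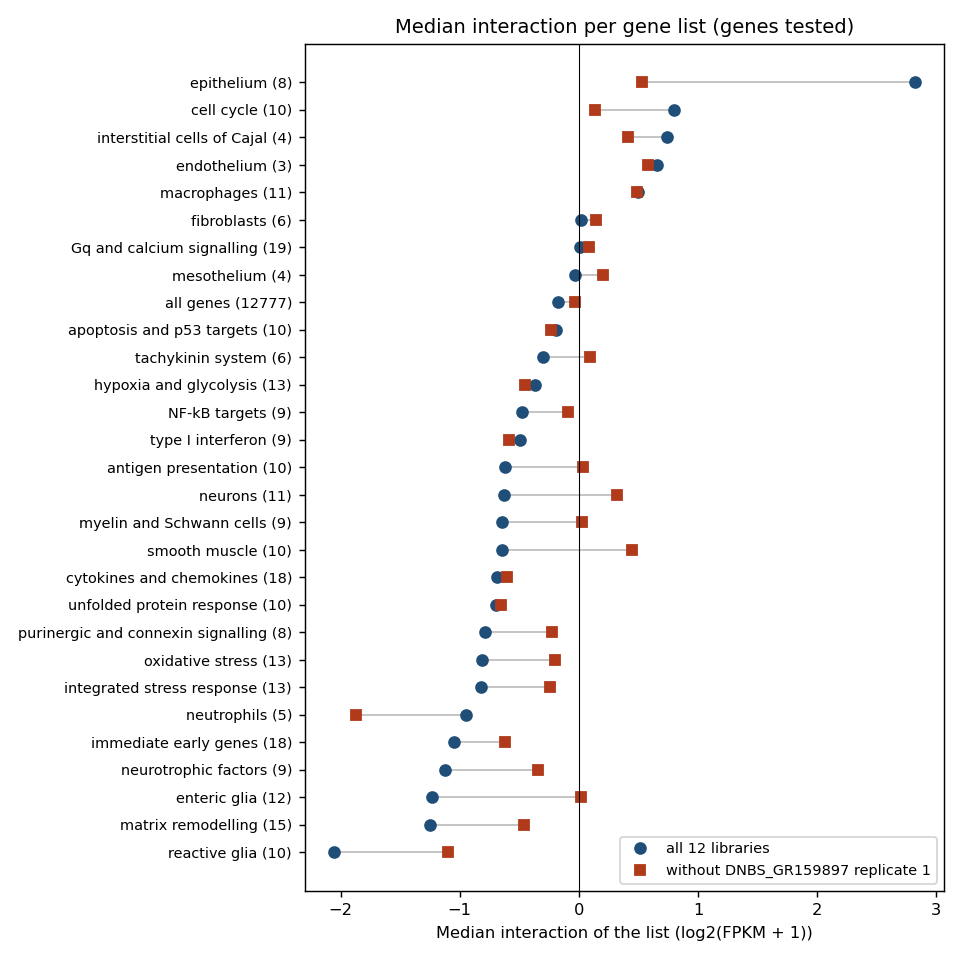
Median interaction of each gene list with at least 3 tested members, and of all genes, over 12 libraries (blue circles) and without DNBS_GR159897 replicate 1 (red squares), on the log2(FPKM + 1) scale, with the number of tested genes in brackets. Epithelial markers move from 2.82 to 0.53 and enteric glia markers from −1.23 to 0.02, while cytokines move from −0.68 to −0.60.

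The genes of the blocked receptor and its ligands did not pass. Tacr2 itself was low in all groups, at 0.96, 2.5 and 0.54 FPKM across Saline_Vehicle, 0.53, 7.22 and 1.47 across DNBS_Vehicle, 0.30, 1.23 and 2.39 across Saline_GR159897 and 0.08, 2.05 and 1.95 across DNBS_GR159897. All groups overlapped, and the interaction was −0.52 ± 0.88 (95% interval −2.44 to 1.39) over 12 libraries and −0.03 ± 0.87 over 11. Tacr1, the receptor for substance P, had an interaction of −0.20 ± 0.60 and 0.22 ± 0.53 at its annotated locus. Many further assembled loci named Tacr1, with no annotated transcript, were not part of this value. They reached 14.2 FPKM in DNBS_GR159897 replicate 1 and 7.33 FPKM in DNBS_Vehicle replicate 2. Tac1 was at 11.5 to 76.1 FPKM across DNBS_Vehicle and 10.9 to 53.9 FPKM across DNBS_GR159897, with an interaction of 0.19 ± 1.02 and 0.89 ± 0.86. Of the 6 tested members of the tachykinin system 4 were below 0 over 12 libraries and 3 over 11 (all genes: 59.6% and 52.4%), with medians of −0.30 and 0.10. Ece1, an endothelin-converting enzyme that also degrades substance P, was the lowest at −0.76 ± 0.63 and −0.57 ± 0.58. The 19 tested Gq and calcium signalling genes had medians of 0.01 and 0.08, with 10 and 11 above 0 (all genes: 40.4% and 47.6%). Among them 0 had an unadjusted p under 0.05, against 3.58% and 3.2% of all genes, which for 19 genes is too few to read as a result. Prkcd, a protein kinase C, was the highest over 12 libraries at 2.57 ± 1.23 and stood at 1.26 ± 0.68 over 11, where Arrb1 was the highest. Prkcd had 63.8 FPKM in DNBS_GR159897 replicate 1 against 6.24 and 1.46 FPKM in replicates 2 and 3. Further assembled loci named Prkcd, with no annotated transcript, were not part of this value. The highest of them had 85.6, 4.0 and 8.78 FPKM across DNBS_GR159897. Gna11, a Gq-class alpha subunit, was the lowest at −0.95 ± 0.67 and −0.78 ± 0.65.

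S100b and Sox10 differed in whether replicate 1 set their value. S100b, a calcium-binding protein, was at 1.17 FPKM in DNBS_GR159897 replicate 1 and at 94.0 and 135 FPKM in replicates 2 and 3, and its interaction went from −2.21 ± 1.64 to −0.31 ± 0.52 without that library. Gfap, the glial intermediate filament, has blank values in Saline_Vehicle and was not tested. Sox10, the transcription factor that drives the Cre recombinase, did not follow S100b. It was at 1.3, 4.63 and 6.79 FPKM across DNBS_GR159897, below all 9 other libraries. In Saline_GR159897 it was at 239, 141 and 228 FPKM. The vehicle groups were uneven, at 179, 15.4 and 248 FPKM across Saline_Vehicle and 9.04, 184 and 127 FPKM across DNBS_Vehicle. Its interaction was −4.87 ± 1.59 over 12 libraries and −4.36 ± 1.79 over 11 (unadjusted p = 0.0093 and 0.0362; adjusted p = 0.957 and 1). Of the 12 tested enteric glia markers 10 were below 0 over 12 libraries and 6 over 11, with medians of −1.23 and 0.02.

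Epithelial and smooth muscle markers moved with the contrast mainly through replicate 1. All 8 tested epithelial markers were above 0 over 12 libraries, with a median of 2.82, and 7 of 8 over 11 with a median of 0.53. Epcam, an epithelial adhesion protein, was at 183 FPKM in DNBS_GR159897 replicate 1 and at most 4.86 FPKM elsewhere, and its interaction went from 2.17 ± 2.20 to −0.26 ± 0.97. Krt8 was at 3.56 ± 1.2 with that library and at 2.54 ± 0.97 without it (unadjusted p = 0.0228 over 11). A further locus named Krt8, with no annotated transcript, had 350 FPKM in DNBS_GR159897 replicate 1 and was not part of these values. The smooth muscle median went from −0.65 to 0.44, with Acta2 at −0.98 ± 1.18 and 0.16 ± 0.53. Of the 5 tested neutrophil markers 4 were below 0 over 12 libraries and 5 over 11, with medians of −0.95 and −1.87. The 9 neutrophil markers summed to 479, 579 and 11.6 FPKM across DNBS_Vehicle and 256, 52.0 and 41.2 FPKM across DNBS_GR159897, against 0.44 to 12.1 FPKM after saline, and the DNBS groups overlapped. S100a8, a calcium-binding protein of neutrophils, had an interaction of −1.98 ± 1.51 and −2.66 ± 1.61. The part of invading cells in the cytokine values was not tested. Cell cycle genes had 8 of 10 above 0 over 12 libraries and 7 over 11, with medians of 0.80 and 0.14, and Cdc25b, a phosphatase that starts mitosis, was the highest at 2.09 ± 0.70 and 1.85 ± 0.73.

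The remaining lists held no called member either. All 10 tested genes of the unfolded protein response, which refolds proteins in the endoplasmic reticulum, were below 0 over 12 libraries and 8 of 10 over 11, with medians of −0.70 and −0.65. Their lowest member over 12 libraries, Sdf2l1, was listed at 0 in DNBS_GR159897 replicate 1, and its interaction was −2.25 ± 1.46 with that library and −0.71 ± 0.78 without it, where Hspa5 was the lowest. Antigen presentation genes lay lower with DNBS in both arms, with 0 of 10 above 0 in either, against 43.1% and 37.6% of all genes. They had medians of −1.95 in the vehicle arm and −2.31 in the antagonist arm. Their median interaction was −0.62 over 12 libraries and 0.04 over 11. Tap1, a peptide transporter whose exons overlap Psmb9 on the opposite strand, was the highest at 0.96 ± 1.2 and 1.02 ± 1.35. B2m, the light chain of MHC class I, was the lowest over 12 libraries at −1.69 ± 1.59 and stood at −0.42 ± 1.23 over 11, where H2-Ab1 was the lowest. Medians over 12 and 11 libraries were −0.50 and −0.59 for type I interferon genes (9 tested), −0.20 and −0.23 for apoptosis and p53 targets (10), and −0.37 and −0.45 for hypoxia and glycolysis (13). They were −1.12 and −0.34 for neurotrophic factors (9) and −0.79 and −0.23 for purinergic and connexin signalling (8). Among cell type markers they were −0.65 and 0.03 for myelin and Schwann cells (9), −0.63 and 0.32 for neurons (11), 0.74 and 0.41 for interstitial cells of Cajal (4) and 0.02 and 0.15 for fibroblasts (6). Macrophage markers had medians of 0.50 and 0.49 (11), and Cd14, a receptor for bacterial lipopolysaccharide, was the highest at 1.90 ± 0.96 and 2.40 ± 0.97. Endothelial markers had 0.65 and 0.58 (3) and mesothelial markers −0.03 and 0.20 (4).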

How the data were processed

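The deposited table holds FPKM values per assembled locus and library, made by the authors; per the submitters' processing notes, cutadapt 1.10, FastQC 0.10.1, HISAT2 2.0 and StringTie 1.3 were used, with the build of the genome not given in the sources used here. Depth per library is unknown. Of 99547 loci, 24432 hold an Ensembl transcript; 1 locus per symbol (highest mean) and FPKM of at least 1 in at least 3 libraries gave 12778 genes, of which 12777 were tested. Further loci of a symbol that hold no annotated transcript were not added to its values. Positions are from GENCODE (GRCm38). Values were log2(FPKM + 1). A linear model with 1 coefficient per group was fitted over all 12 libraries, and over 11, with limma 3.58.1 (R 4.3.3; trended, robust prior); p-values are two-sided, with Benjamini-Hochberg adjustment across the genes tested and a threshold of 0.05. Named genes were those past the threshold, the 8 per direction with the smallest p at a highest group mean of at least 2 FPKM, crossed genes by mean, vehicle-arm genes by p, fixed genes and the extremes of each list; predicted genes and merged loci were left out. Members and lists were chosen with earlier results of these data known. The alternatives are in the closing section. Mast cell markers are not analysed here, and 0 lymphocyte markers passed the filter. The model was also run on simulated data with normal noise and no outlying library, and no result above rests on that run. Tables and plots used Python 3.11.15 (pandas 2.3.3, numpy 2.4.6, matplotlib 3.10.9). Some genes of the rule are not reported here.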

Additional observations from a re-analysis of the deposited data

Results flagged for a closer look

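Gas1 differed between the arms without DNBS_GR159897 replicate 1, by 3.67 on the log2(FPKM + 1) scale (limma, adjusted p = 0.00913), with 2 of 2 remaining DNBS_GR159897 libraries above 0 FPKM and 9 of 9 other libraries listed at 0. It was the single gene of 12777 to pass. Gas1 met the filter of 1 FPKM in 3 libraries only through the 3 DNBS_GR159897 libraries, replicate 1 included, so it had to differ, and the call is a description.

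The part of the summed FPKM that fell on assembled loci without an annotated transcript, which no comparison above uses, had a mean of 52.2% ± 22.3 (SD, n = 3) in DNBS_GR159897. The level was 28.9% ± 15.6 in DNBS_Vehicle, 17.1% ± 10.7 in Saline_GR159897 and 11.7% ± 4.60 in Saline_Vehicle. The libraries of DNBS_GR159897 lay between 35.5% and 77.4%, above all 6 saline libraries, of which the highest was 24.6%.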

How the results depend on the processing

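The interaction called 0 genes over 12 libraries and 1 over 11. Over 12 libraries it called 1 with a minimum of 1 FPKM in 6 libraries, 5 with library weights, 2 at a pseudocount of 0.1, 1 at 0.5 and 1 when scaled to the annotated total. Over 11 libraries these settings gave 0, 3, 2, 2 and 3, a term for the annotated share gave 3, and 0 passed with loci lacking an annotated transcript. Leaving out 1 library gave 0 to 2 and 0 to 4. The vehicle arm (41) called 514 with library weights, 13 with no filter, 21 at a pseudocount of 0.1 and 24 with a sex term. The antagonist arm (176) called 1 with the share term, 2154 with library weights, 662 with loci lacking an annotated transcript (459 higher), 18 with no filter, 42 at a pseudocount of 0.1, 91 when scaled (50 higher, against 49 of 176) and 25 with a sex term. Without 1 library the arms called 0 to 176 and 4 to 604: the antagonist arm 4 without Saline_GR159897 replicate 1 or 3, 48 without DNBS_GR159897 replicate 1 and 604 without DNBS_GR159897 replicate 3. The share term and the loci lacking an annotated transcript were chosen after seeing the data, and the cause was not tested. With library weights over 12 libraries, Gas1, Tmem53 and Tmem167b were among the genes that passed the interaction (adjusted p = 0.00814, 0.0273 and 0.0112). Over 11, Tmem53 passed with library weights (0.0453) and when scaled (0.0362), and Pcdhb9 passed without Saline_GR159897 replicate 2 (0.000656).

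Libraries with the same replicate number did not deviate together: 2 of 18 pairs had a correlation over 0.1 (range −0.09 to 0.20), and 5 of 12 libraries were closest to their own number. With a replicate block the interaction called 0 and 0 genes, the vehicle arm 18 and the antagonist arm 31, and Gas1 was at 3.67 over 11 libraries (adjusted p = 0.102).

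The sign turned in some settings for the following genes. With library weights the interaction was 0.11 for Tacr2, 0.041 for Tacr1, 0.55 for Fos, −0.054 for Epcam, −0.29 for Areg and 0.39 for Plaur. With the share term it was 0.031 for Acta2, −0.028 for Areg and 0.44 for Plaur. At pseudocounts of 0.1 and 0.5 Areg was at −1.24 and −0.26 and Plaur at 1.04 and 0.21, and with a sex term they were at −0.15 and 0.083. Quantile normalisation gave 0.12 for Pim1 and 0.31 for Plaur, and scaling 0.28 for Pim1, 0.38 for Plaur and 0.0062 for Tacr1. Without 1 library the range was −1.04 to 0.17 for Tacr2, −0.61 to 0.22 for Tacr1, −0.58 to 0.89 for Tac1, −0.26 to 3.51 for Epcam, −1.67 to 0.16 for Acta2, −0.31 to 0.22 for Areg, −0.48 to 0.032 for Pim1, −0.52 to 0.62 for Plaur and −0.18 to 1.86 for Tap1. FPKM without counts leave the depth, and so the counting error, unknown.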
